A study of Homo sapiens with 288 samples.

Results

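The genes examined were those of fibroblast growth factor (FGF) signalling and its negative feedback: the receptors FGFR1, FGFR2 and FGFR4, the ligand FGF2, the sprouty genes SPRY1, SPRY2 and SPRY4, the phosphatase gene DUSP6 and the transcription factor gene ETV5. They were taken by gene symbol from a list of 10, of which 9 were analysed here, out of 17492 protein-coding genes quantified in the series. The rule that selects them uses no measured value, although the list was drawn up with earlier results of these data known. A further FGF receptor gene on the list was not analysed here.

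The series measured gene expression in single cells of 2 kinds, endothelial cells (EC) and cells resembling trophoblast (TB), both derived from the human embryonic stem cell line H1. EC were obtained from H1 cultured for 2 days in E8, a defined medium that contains FGF2, with 5 ng/ml BMP4 and 25 ng/ml Activin A, followed by VEGF and WNT for 3 days. TB were obtained from H1 in E7, which is E8 without FGF2, to which 50 ng/ml BMP4 and SB431542, an inhibitor of Activin and TGF-beta type I receptors, were added. The media named therefore differed, beside other agents, in a ligand of the receptors examined, and cell type and medium cannot be told apart. The base medium of the 3 days with VEGF and WNT and the length of the TB culture are not given here. Whether FGF2 supply differed when the cells were collected is thus not known. The full-length cDNA of 45 EC and 51 TB cells, each captured in a chamber of a Fluidigm C1 chip, was brought to equal input. It was sequenced in 3 experiments: EQ, with equal pooling volumes, EQ-Vary, with variable pooling volumes, and EQ-75%. The last was a repeat of EQ at a nominal 75% of its depth.

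The 288 libraries thus came from 96 cells, each of which appears once in every experiment. After the study's limits on depth and on the share of counts in the 50 most abundant genes were applied, 259 libraries remained, with total counts of 291346 to 6345155. In EQ these were 38 EC and 48 TB cells, with median totals of 2025137 and 1968563. The median totals in EQ-75% were 1499256 for EC and 1765249 for TB, so the depth of TB fell less than that of EC. The labels name no separate cultures, so each cell type in each experiment is 1 sample, no test of EC against TB was possible, and SDs describe the spread between cells. Reads carried no molecular identifiers, so the intervals given cover counting error only. For summed counts this is the error of reads, not of molecules, and it leaves out the spread between cells.

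FGFs bind receptor tyrosine kinases on the cell surface, which relay the signal through RAS and the kinases RAF, MEK and ERK. ERK activity induces inhibitors of the same pathway: sprouty proteins act upstream at the level of RAS and RAF, DUSP6 removes phosphate from ERK, and ETV5 is a transcription factor of the PEA3 group within the ETS family. Such genes are widely used as readouts of FGF and ERK signalling, although other receptors, the VEGF receptors of endothelial cells among them, also act through ERK.

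The cell type labels were checked on marker genes first. All 14 endothelial markers with a mean of at least 1 CPM (counts per 1000000 of a cell's total) over both types in EQ were at least 2-fold higher in EC, and their summed level ranged from 359 to 9930 CPM in EC and from 3.43 to 98.2 CPM in TB. Of 12 trophoblast markers, 9 were at least 2-fold higher in TB and 3, GATA2, GATA3 and CGA, were not called. In TB the summed level of the trophoblast markers was 2407 to 12222 CPM, against 114 to 3964 CPM in EC. Markers of mesoderm and stroma were also higher in TB: of 8 at this level, 6 were called in TB, 0 in EC and 2 in neither. The summed level of that list was 656 to 10874 CPM in TB and 6.04 to 784 CPM in EC. Of 8 pluripotency markers, 4 were called in EC, 2 in TB and 2 in neither.

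The FGF genes divided between the cell types. FGFR1, SPRY1, SPRY4, DUSP6 and ETV5 were higher in EC, and FGFR2 and SPRY2 were higher in TB. FGF2 did not differ by 2-fold, and FGFR4 had a mean under 1 CPM in both. Folds are plain ratios of mean CPM, whereas log2 ratios, on which calls rest, have 1 CPM added to both means and are therefore smaller for genes at low levels. Of the 9 genes, 5 were called at 2-fold in EC and 2 in TB, in a comparison that called 17.8% of 12351 genes in EC and 24.6% in TB. The difference of mean log2(CPM + 1) exceeded the larger SD between cells for FGFR1, SPRY4, DUSP6 and ETV5 on the EC side and for FGFR2 on the TB side, where 3.76% and 5.69% of all genes did so. SPRY1 and SPRY2 passed 2-fold but not the spread between cells.

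**Figure D1:**
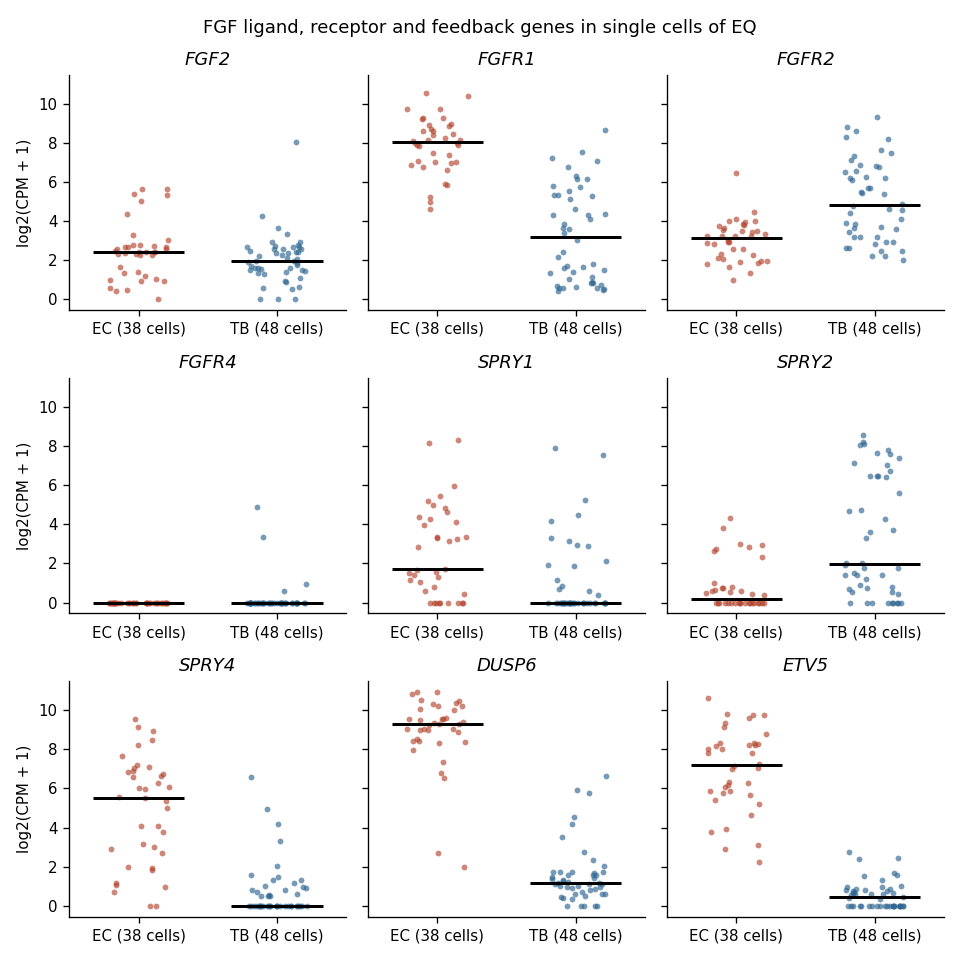
Level of each of the 9 FGF genes in every passing cell of EQ, as log2(CPM + 1), for EC (38 cells) and TB (48 cells). Points are cells and black bars are medians. DUSP6 and ETV5 separate the cell types almost fully, whereas FGF2 overlaps throughout and SPRY2 in TB spreads from 0 to 380 CPM.

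FGF2 (ENSG00000138685, chr4:122826682-122898236, plus strand, GRCh38) encodes the ligand that E8 supplies. In EC its level was 0 CPM in the lowest cell, 4.35 CPM in the median cell and 49.4 CPM in the highest, with a mean of 9.05 ± 13.7 CPM (SD, n = 38). In TB the lowest, median and highest cells were at 0, 2.93 and 261 CPM, with a mean of 8.95 ± 37.3 CPM (SD, n = 48). The cells of both types overlapped over almost the whole range, and an EC cell was above a TB cell in 59.5% of all pairs of cells. A single cell, TB 33, held 60.8% of the summed FGF2 level of TB. The same cell was at 263 CPM in EQ-Vary and 274 CPM in EQ-75%, made from the same cDNA, so the high value was not confined to 1 library. Without TB 33 the TB mean was 3.58 CPM and the log2 ratio of EC over TB moved from 0.02 to 1.13, past the 2-fold limit. FGF2 shares 804 bp of exon with NUDT6 on the opposite strand. Because the protocol does not mark strand, the reads of these genes cannot be told apart there, and NUDT6 itself was at 8.30 ± 34.3 CPM in EC and 5.82 ± 19.1 CPM in TB (SD). The same limit holds for DUSP6, which shares 1105 bp of exon with a long non-coding RNA gene on the opposite strand. FGFR1 shares 387 bp with another such gene and 138 bp with LETM2. The part of such reads in the levels of these genes was not tested.

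FGFR1, on chromosome 8 (ENSG00000077782), was the highest in EC of the receptor genes analysed. Every EC cell held it, at 23.9 CPM in the lowest, 261 CPM in the median and 1510 CPM in the highest cell, and the mean was 351 ± 330 CPM (SD, n = 38). In TB the lowest, median and highest cells were at 0.334, 8.31 and 405 CPM, and the mean was 35 ± 68.8 CPM (SD, n = 48). The mean was 10.0-fold higher in EC (log2 ratio 3.29), and 1 of 48 TB cells, TB 40, lay above the EC median. The ranges overlapped, since 15 TB cells exceeded the lowest EC cell and 11 EC cells exceeded the highest TB cell. TB 40 was also the shallowest passing TB library of EQ, with 365536 counts, and in EQ-75%, at 2009129 counts, it held 221 CPM of FGFR1. With the counts of all cells summed, the level was 371 CPM in EC (95% exact Poisson interval 367 to 375) and 31.4 CPM in TB (30.3 to 32.5).

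FGFR2 (ENSG00000066468, chr10:121478332-121598458, minus strand) had the opposite pattern. In EC it was at 0.977 CPM in the lowest, 7.72 CPM in the median and 87.5 CPM in the highest cell, with a mean of 9.97 ± 13.8 CPM (SD, n = 38). In TB it was at 3.00, 27.2 and 626 CPM in the lowest, median and highest cell, with a mean of 84.4 ± 129 CPM (SD, n = 48). The TB mean was thus 8.47-fold higher (log2 ratio of EC over TB -2.96), and 14 TB cells were above every EC cell. The highest EC cell, EC 5, was also the highest for FGFR1 and was the only EC cell above 20.9 CPM. The difference of mean log2(CPM + 1) was -2.06 against an SD of 2.04 in TB, and in EQ-Vary it was -1.80 against 2.12, so it was at the size of the spread between TB cells.

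FGFR2 in EC stood at 11.8% of its TB mean. Over the 12 trophoblast markers this share ranged from 0.133% for KRT7 to 172% for GATA2, and 5 of them were above that of FGFR2. VTCN1, at 0.319%, was still counted in all 38 EC cells. Detection alone therefore did not separate the cell types, and levels are given instead. When each cell was thinned to 250000 counts, the detection rate of FGFR2 was 63.2% in EC and 95.8% in TB, and that of FGFR1 was 100% and 64.6%, against 100% for both genes in both types before thinning.

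FGFR4 (ENSG00000160867, chr5:177086905-177098144, plus strand) had no count in any of the 38 EC cells, which by the limit of 3 cells allows up to 7.89% of cells with a count, and by the exact binomial interval up to 9.25%. This limits cells with a count and not cells that express the gene. In TB it was counted in 4 of 48 cells (8.33%, 95% exact binomial interval 2.32% to 19.98%), and TB 5 at 28.4 CPM and TB 6 at 9.19 CPM held nearly all of it. The same cells led again at 26.9 and 5.35 CPM in EQ-Vary and at 19.9 and 7.98 CPM in EQ-75%. The mean over TB, 0.812 CPM, left FGFR4 below the minimum for a call, and without TB 5 it was 0.226 CPM.

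Levels of the 3 receptors were compared with each other per kb of annotated exon. In EC FGFR1 was at 20.4 ± 19.2 CPM per kb and FGFR2 at 0.530 ± 0.733 CPM per kb (SD), so that FGFR1 made up 97.5% of the summed level of these 3 receptors and was the highest of them in 38 of 38 cells. In TB FGFR2 was at 4.49 ± 6.86 CPM per kb and FGFR1 at 2.03 ± 4.0 CPM per kb, with shares of 67.1% and 30.4%. TB was mixed: FGFR2 was the highest of the 3 in 35 of 48 cells and FGFR1 in 13. The counts are per gene, so the splice forms of each receptor, which differ in the ligands they bind, were not separated.

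Cell by cell, all 38 EC cells held at least 10 CPM of FGFR1, 14 of them with at least 10 CPM of FGFR2 as well. Among TB cells, 18 reached 10 CPM for FGFR2 only, 7 for FGFR1 only, 16 for both and 7 for neither. In EQ-75% the same counts were 22, 9, 12 and 7 of 50 TB cells. The limit of 10 CPM was chosen after the data had been seen.

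**Figure D2:**
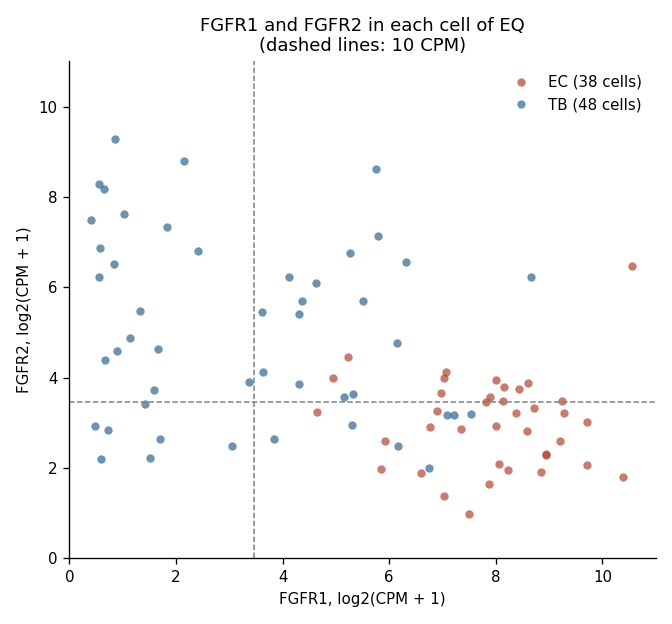
FGFR1 (x axis) against FGFR2 (y axis) in each passing cell of EQ, both as log2(CPM + 1), with dashed lines at 10 CPM. All 38 EC cells lie right of the vertical line, while the 48 TB cells occupy all 4 quadrants.

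The sprouty genes, which encode inhibitors of receptor tyrosine kinase signalling, did not move together. SPRY4 (ENSG00000187678, chr5:142310427-142326455, minus strand) was at 0 CPM in the lowest, 45 CPM in the median and 738 CPM in the highest EC cell, with a mean of 108 ± 169 CPM (SD, n = 38). In TB the median cell was at 0 CPM and the highest, TB 9, at 96.3 CPM, with a mean of 3.55 ± 14.6 CPM (SD, n = 48). The EC mean was 30.4-fold higher (log2 ratio 4.58), and 13 EC cells exceeded every TB cell. TB 9 held 56.5% of the summed TB level, and without it the TB mean was 1.58 CPM and the log2 ratio 5.4.

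SPRY2 (ENSG00000136158, chr13:80335976-80341126, minus strand) was the only one of the sprouty genes examined that was called in TB. It was at 0, 0.158 and 19.1 CPM in the lowest, median and highest EC cell, with a mean of 1.92 ± 4.05 CPM (SD, n = 38). In TB the lowest, median and highest cells were at 0, 2.94 and 380 CPM, with a mean of 60.2 ± 96.6 CPM (SD, n = 48). The TB mean was 31.3-fold higher (log2 ratio -4.39), but the TB cells were spread: 21 of 48 held at least 10 CPM, 9 held no count, and 18 exceeded every EC cell. The difference of mean log2(CPM + 1), -2.53, was smaller than the SD of 3.05 between TB cells. The spread recurred in EQ-75%, which used the same stored cDNA. Whether it arose in the cells or in making that cDNA was not tested. Of the 47 TB cells that passed in both EQ and EQ-75%, 20 held at least 10 CPM of SPRY2 in both, 26 in neither and 1 in EQ alone.

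SPRY1 (ENSG00000164056, chr4:123396795-123403760, plus strand) was lower and rested on few cells. In EC it was at 0, 2.28 and 319 CPM in the lowest, median and highest cell, with a mean of 25.2 ± 67.8 CPM (SD, n = 38). In TB it was at 0, 0 and 234 CPM, with a mean of 11.1 ± 42.4 CPM (SD, n = 48). The EC mean was 2.27-fold higher (log2 ratio 1.11). Without EC 19 the log2 ratio was 0.60 and without EC 39 it was 0.66, both under the 2-fold limit. In TB the cells TB 51 at 234 CPM and TB 20 at 182 CPM held most of the level, and without TB 51 the log2 ratio was 1.83. At 10 CPM or more, 23 of 38 EC cells held 1 of the 3 sprouty genes, 8 held 2 and 7 held none, while of 48 TB cells 25 held none, 18 held 1, 4 held 2 and 1 held all 3.

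DUSP6 (ENSG00000139318, chr12:89347235-89352501, minus strand) was at 2.99 CPM in the lowest, 624 CPM in the median and 1944 CPM in the highest EC cell, with a mean of 734 ± 514 CPM (SD, n = 38). In TB it was at 0, 1.24 and 99.8 CPM in the lowest, median and highest cell, with a mean of 6.62 ± 18 CPM (SD, n = 48). The EC mean was 111-fold higher (log2 ratio 6.59), 35 of 38 EC cells were above every TB cell, and no TB cell reached the EC median. Only 6 TB cells reached 10 CPM, led by TB 2, TB 9 and TB 34, and the same 6 did so in EQ-75%, beside TB 4 and TB 28, which did not pass in EQ.

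ETV5 (ENSG00000244405, chr3:186046314-186110318, minus strand) had the largest ratio of the 9 genes. Its level was 3.65 CPM in the lowest, 144 CPM in the median and 1584 CPM in the highest EC cell, with a mean of 279 ± 340 CPM (SD, n = 38). In TB the lowest, median and highest cells were at 0, 0.362 and 5.64 CPM, with a mean of 0.713 ± 1.21 CPM (SD, n = 48). The EC mean was 391-fold higher, and 286-fold in EQ-Vary and 617-fold in EQ-75%, a ratio that rests on TB means under 1 CPM. With 1 CPM added the log2 ratio was 7.35. In EQ 37 of 38 EC cells were above every TB cell.

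DUSP6 in TB stood at 0.902% and ETV5 at 0.256% of their EC means. For the 14 endothelial markers this share ranged from 0% for CLDN5 to 10.4% for ENG, with PECAM1 at 1.14%, KDR at 0.267% and CDH5 at 0.185%. DUSP6 was counted in 89.6% and ETV5 in 54.2% of TB cells. In the same cells KDR and PECAM1 were counted in 100%, CD34 in 79.2%, EMCN in 75%, CDH5 in 64.6% and CLDN5 in 0%. Of the endothelial markers, KDR and PECAM1 were above DUSP6, and KDR, PECAM1, CD34, EMCN and CDH5 were above ETV5. Near-empty TB libraries of EQ, 3 libraries of 8572 to 45803 counts, among them TB 4 and TB 28, held 14 counts of DUSP6, 1 of ETV5, 15 of PECAM1 and 10 of KDR beside 180 of LUM, a stromal marker with a mean of 3042 CPM in passing TB cells. In these libraries DUSP6 was at 240 CPM in TB 4 and 241 CPM in TB 28. The same cells passed in EQ-75% and held 283 and 552 CPM of DUSP6 there. The part of reads from other cells in the low TB values was not tested.

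SPRY4, DUSP6 and ETV5 reached 10 CPM together in 21 of 38 EC cells and in 0 of 48 TB cells. ETV5 reached 10 CPM in 35 EC cells and in 0 TB cells. Only 2 EC cells were under 10 CPM for DUSP6, and they were singled out after their values had been seen. EC 15 held 2.99 CPM of DUSP6 beside 857 CPM of ETV5 and 94.6 CPM of SPRY4, and it was also the EC cell with the least FGFR1, at 23.9 CPM. Its endothelial markers were low as well, with KDR at 51.3 CPM and PECAM1 at 99.6 CPM, where the EC medians were 1806 and 1005 CPM. EC 17 held 5.42 CPM of DUSP6 and 65.5 CPM of ETV5 with KDR at 881 CPM. In EQ-75% DUSP6 was again at 3.28 CPM in EC 15 and 3.48 CPM in EC 17.

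The promoters of DUSP6 and SPRY4, called in EC, and of SPRY2, called in TB, are shown because these feedback genes were called in opposite directions and ETV5 belongs to a family that binds GGAA sites. Each line is the 250 bases before a RefSeq transcript start (GRCh38.p14), read 5′ to 3′ on the minus strand of chr12:89352502-89352751, chr5:142324248-142324497 and chr13:80341127-80341376, and capitals mark matches to CCGGAA or AGGAAG or their complements.
DUSP6: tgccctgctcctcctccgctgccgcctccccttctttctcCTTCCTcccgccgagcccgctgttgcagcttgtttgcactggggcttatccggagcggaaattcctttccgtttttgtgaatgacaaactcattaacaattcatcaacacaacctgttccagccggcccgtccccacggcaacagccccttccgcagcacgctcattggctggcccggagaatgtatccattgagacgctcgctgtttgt
SPRY4: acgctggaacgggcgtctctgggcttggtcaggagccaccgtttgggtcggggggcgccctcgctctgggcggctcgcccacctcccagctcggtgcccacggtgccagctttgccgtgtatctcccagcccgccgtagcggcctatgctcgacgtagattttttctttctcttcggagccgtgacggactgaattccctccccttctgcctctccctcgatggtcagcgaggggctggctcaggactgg
SPRY2: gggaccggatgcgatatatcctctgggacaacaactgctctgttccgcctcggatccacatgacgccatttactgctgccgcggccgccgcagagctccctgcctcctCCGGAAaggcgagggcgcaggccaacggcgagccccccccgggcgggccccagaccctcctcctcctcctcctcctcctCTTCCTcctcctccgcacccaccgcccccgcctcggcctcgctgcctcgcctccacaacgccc
Both motifs contain GGAA but differ in the base before it, so a single GGAA is never counted for both. They were searched on both strands of windows that also took in the 50 bases after the start. In the windows shown, DUSP6 had 1 match to AGGAAG, which began 210 bases before the start, SPRY2 had 1 match to each motif and SPRY4 had 0. SPRY2 had 2 further windows, each with 1 match to AGGAAG. Windows were found for 7 of the 9 genes, and of their 15 windows 2 held CCGGAA and 7 held AGGAAG, where 17.2% and 33.6% of 35116 windows of all genes did so. A match describes letters in the window and is not evidence of binding.

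The pattern was the same in the other experiments, which re-used the cDNA of these cells and are therefore not independent of EQ. The same 5 genes were called in EC and the same 2 in TB in each of them, where all genes gave 17.9% and 24.6% in EQ-Vary and 17% and 25.4% in EQ-75%. Past the larger SD there were 4 in EC in each, 0 in TB in EQ-Vary and 1 in TB in EQ-75%, beside 3.77% and 5.89% of all genes in EQ-Vary and 3.35% and 5.46% in EQ-75%. The log2 ratio of EC over TB for ETV5 was 7.35 in EQ, 7.14 with variable pooling and 7.55 in the repeat at lower depth. For SPRY2 it was -4.39, -4.30 and -4.33, and for FGFR1 it was 3.29, 3.70 and 3.28. DUSP6 stood at 6.59 and 6.85 in EQ and EQ-Vary and at 5.07 in EQ-75%, where its TB mean was 22.4 ± 87.4 CPM (SD, n = 50).

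The higher DUSP6 mean of TB in EQ-75% came from TB 28 at 552 CPM and TB 4 at 283 CPM, which passed the limits there but were near-empty in EQ, with 12434 and 45803 counts. Without them the mean was 5.88 ± 16.1 CPM (SD, n = 48). Both cells carried the TB marker VTCN1, at 1087 and 551 CPM, with KDR at 3.25 and 6.0 CPM, CDH5 at 0.541 and 44 CPM and ETV5 at 0.541 and 0 CPM. In their near-empty EQ libraries, DUSP6 was at 241 and 240 CPM, which in TB 28 rests on 3 counts. These cells were named after their values had been seen.

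Over the same cells, genes at high levels largely kept their order between experiments. For 37 EC cells that passed in both EQ and EQ-75%, Spearman's rho of the level was 0.98 for FGFR1, 0.97 for DUSP6, 0.98 for SPRY4 and 0.99 for ETV5, and for 47 TB cells it was 0.94 for FGFR1, 0.96 for FGFR2 and 0.87 for SPRY2. It was lower where levels were low: 0.59 for FGFR2 in EC, 0.52 for DUSP6 in TB and 0.25 for ETV5 in TB. The mean within-cell difference in log2(CPM + 1) between EQ-75% and EQ ranged from -0.24 for SPRY1 in EC to 0.04 for DUSP6 in EC. It did not exceed its SD for any gene in either cell type, in EQ-75% or in EQ-Vary. This SD is the spread of the differences over cells, so a shift shared by most cells can still lie below it. Of all genes, 1.4% in EC and 0.967% in TB were lower in EQ-75% by more than the SD and 0.0348% and 0.0673% were higher. In EQ-Vary 0.0174% and 0.0168% were lower and 0% were higher. Of the 9 genes, FGFR1 was lower in the most cells in both types: its mean in EQ-75% was 83.6% of that in EQ in EC, lower in 27 of 37 cells, and 83.3% in TB, lower in 32 of 47 cells. In EQ-Vary FGFR1 stood at 99.0% and 97.4% of EQ.

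**Figure D3:**
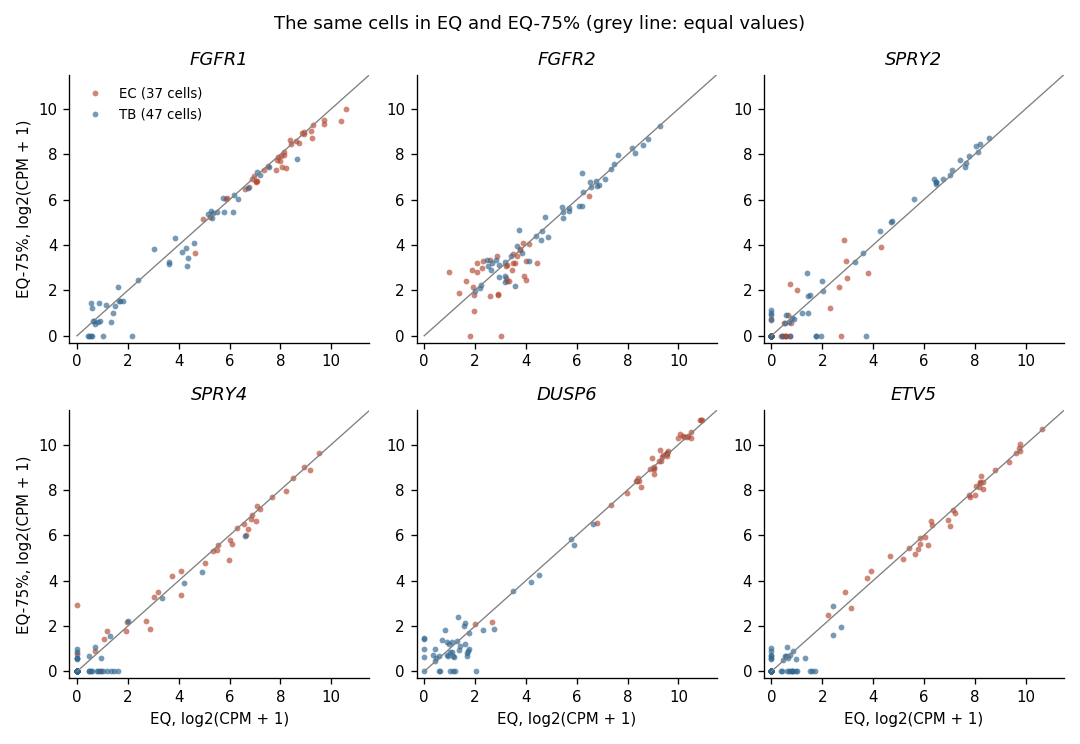
Level of 6 FGF genes in the same cells in EQ (x axis) and EQ-75% (y axis), as log2(CPM + 1), for 37 EC and 47 TB cells that passed in both. High values follow the grey line of equal values, with 20 TB cells at 10 CPM or more of SPRY2 in both, and low values scatter around it.

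Co-variation between cells of 1 type was weak. Among EC, 8 of the genes were detected in at least 50% of cells, and Spearman's rho over 38 cells had a median of 0.01 over their 28 pairs, from -0.25 for FGF2 with SPRY1 to 0.34 for SPRY4 with ETV5. The pair SPRY4 and ETV5 was the only one at 0.3 or above, where 6.57% of all gene pairs of EC were, and its rho was 0.34 in EQ-Vary and 0.31 in EQ-75%. At -0.3 or below there were 0 pairs in EC and 0 in TB, against 2.76% and 2.09% of all gene pairs. In EC of EQ, DUSP6 had a rho of 0.22 with ETV5, 0.18 with SPRY4 and 0.01 with FGFR1. With ETV5 its rho in EC was 0.25 in EQ-Vary and 0.35 in EQ-75%. Among TB, 6 genes gave 15 pairs with a median of 0.04 over 48 cells, from -0.29 for FGFR2 with DUSP6 to 0.32 for FGFR2 with ETV5, and 1 pair reached 0.3 where 4.86% of all pairs did. That pair, FGFR2 with ETV5, had a rho of -0.26 in EQ-Vary, and FGFR2 with DUSP6 stood at -0.08 in EQ-Vary and 0.09 in EQ-75%, so neither end of this range held in the same cDNA. FGFR1 and FGFR2 had a rho of -0.10 in EC and -0.19 in TB. For EC and TB it was -0.20 and -0.37 in EQ-Vary, and 0.13 and -0.16 in EQ-75%. These cells share a library pool and differ in depth, and in counts this sparse such values are a description and not a finding. In EC of EQ-Vary 2 of 21 pairs reached 0.3 and 0 reached -0.3, beside 6.49% and 2.75% of all pairs, and in EC of EQ-75% 3 of 21 and 0 did, beside 6.23% and 2.69%. In TB of EQ-Vary it was 1 of 15 for each sign, beside 4.78% and 2.12%, and in TB of EQ-75% 1 of 10 and 0, beside 4.67% and 1.82%.

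**Figure D4:**
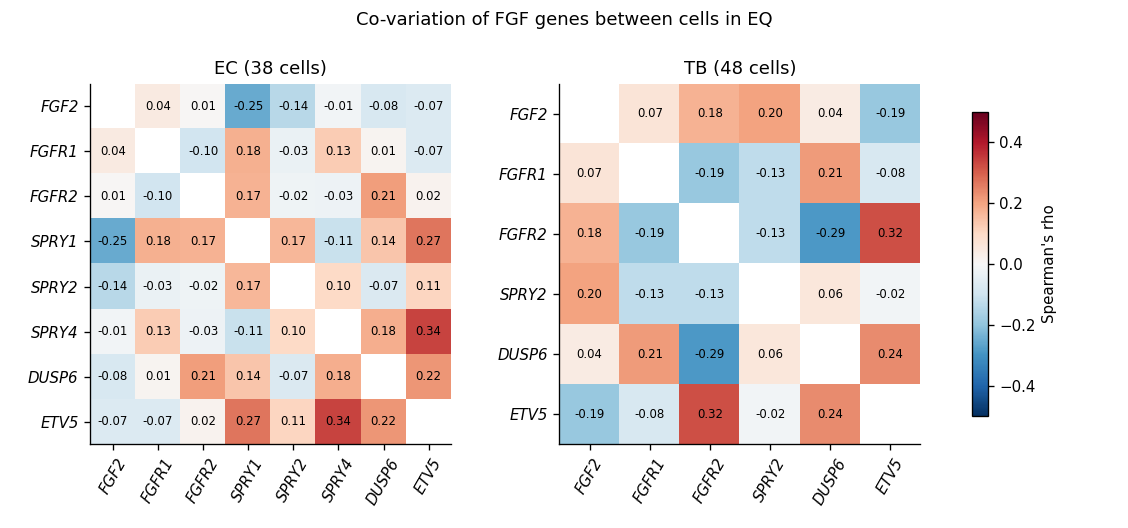
Spearman's rho of log2(CPM + 1) between pairs of FGF genes over the EC cells (left) and the TB cells (right) of EQ, for genes detected in at least 50% of cells of that type. Colour and printed number give rho, which lies between -0.29 and 0.34 in every square.

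Some genes elsewhere in the genome followed a member more closely. Among 6489 other genes detected in at least 80% of EC cells, the highest rho with FGFR1 was 0.69 for CDC42BPB, followed by GUCD1 at 0.60 and IK at 0.59, and in EQ-75% these were 0.62, 0.47 and 0.62. For DUSP6 in EC the leading genes were DCBLD2 at 0.62, ANKRD50 at 0.58 and GNB4 at 0.56, with 0.62, 0.56 and 0.55 in EQ-75%. ETV5 was led by UBE2Z at 0.61, MRPL27 at 0.58 and TIMM8A at 0.56, and SPRY4 by DSE at 0.61, KIAA0100 at 0.60 and MAST4 at 0.57. In EQ-75% these were 0.59, 0.58 and 0.49 for ETV5 and 0.35, 0.53 and 0.55 for SPRY4. For SPRY2 in TB, among 7145 genes over 48 cells, POLR1D, HAND1 and COIL each stood at 0.48. In EQ-75% they were at 0.39, 0.46 and 0.56. HAND1 is a transcription factor gene and one of the trophoblast markers, but SPRY2 had a rho of -0.22 with the summed trophoblast markers over the 48 TB cells. For FGFR2 in TB the leading genes were ZFAND5 at 0.59, RAP2B at 0.52 and IRS1 at 0.49, with 0.50, 0.33 and 0.41 in EQ-75%. Some leading genes had much lower values in EQ-75%. OPRD1, AP4S1 and ZNF546 had 0.74, 0.70 and 0.70 with FGFR2 in EC and 0.21, 0.31 and 0.13 in EQ-75%. FGF2 in EC was led by ITSN2, DDI2 and CAPG at 0.59, 0.58 and 0.57, with 0.29, 0.20 and 0.47 in EQ-75%. In TB it was led by MORN4, RBM23 and TMTC1 at 0.57, 0.56 and 0.56, which were still at 0.50, 0.53 and 0.47. FGFR1 in TB was led by CD68, ISG20L2 and TMEM161A at 0.58, 0.50 and 0.45, and in EQ-75% these were -0.05, 0.51 and 0.25. DUSP6 in TB was led by FBXO45, CEP250 and DYX1C1 at 0.54, 0.53 and 0.53, with 0.21, 0.26 and 0.31 in EQ-75%. These are the highest of 6489 or 7145 values for each gene, and are given as a description. In EC, FGFR1 also had a rho of 0.50 with the summed endothelial markers and 0.37 with those of mesoderm and stroma. It was 0.06 with those of trophoblast and -0.11 with those of pluripotency. The part of these values in the likeness of other genes was not tested.

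The other genes of the pathway were counted by lists drawn up by role, with earlier results of these data known. Each count is to be read beside the 17.8% of all genes called in EC and the 24.6% called in TB. Of 20 further FGF ligand genes with a row, only 5 had a mean of at least 1 CPM over both cell types, and 2 of these were called in EC and 0 in TB. FGF12 was at 155 ± 212 CPM in EC and 4.73 ± 20.7 CPM in TB (SD), and FGF13 at 186 ± 128 and 125 ± 97.4 CPM, which was not called. Both encode intracellular FGF relatives that are not secreted. FGF10, a secreted ligand of the FGFR2 splice form found in epithelia, had a mean of 9.06 CPM in EC but was counted in only 8 of 38 cells, and FGF7 was near 1.5 CPM in both, at 1.44 CPM in EC and 1.75 CPM in TB. FGF5, another secreted ligand, was counted in every cell, at 37 CPM in EC and 33 CPM in TB. With 5 ligands at this level, 0 calls in TB is close to what the share over all genes gives.

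Among 5 co-receptors and binding proteins at this level, 2 were called in EC, 1 in TB and 2 were not called, too few to set apart from 17.8% and 24.6% of all genes. KL, which encodes klotho, the co-receptor of FGF23, was at 65.9 ± 101 CPM in EC and 0.163 ± 0.531 CPM in TB (SD). FLRT3, a membrane protein that can bind FGF receptors, was at 57.3 ± 138 CPM in EC and 440 ± 350 CPM in TB. FGFBP3 was called in EC at a mean of 2.58 CPM, and KLB was not called, at 18.2 CPM in EC and 9.66 CPM in TB.

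The 17 genes of the RAS-ERK core had 5 called in EC, 5 in TB and 7 in neither, not far from the 17.8% and 24.6% of all genes. The adaptor gene SHC1 had the largest ratio, at 317 ± 261 CPM in EC and 37.6 ± 59.6 CPM in TB (SD). The MEK genes went opposite ways: MAP2K1 was at 130 CPM in EC and 29.8 CPM in TB, and MAP2K2 at 7.13 and 39.6 CPM. PLCG1, a phospholipase activated by FGF and VEGF receptors, was at 66.6 CPM in EC and 17.3 CPM in TB.

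Of 19 other ERK feedback and target genes, 14 were called in EC, 3 in TB and 2 in neither, beside 17.8% and 24.6% of all genes. The median log2 ratio of the 19 was 1.65, beside -0.06 for all genes. Because the list was chosen with earlier results known, these counts describe its genes and not ERK targets at large. ETV4, which had the largest ratio on the list, was at 76.1 ± 115 CPM in EC and 0.141 ± 0.261 CPM in TB (SD). DUSP7, another ERK phosphatase, was at 163 ± 195 and 3.72 ± 11.2 CPM, and CCND1, which encodes cyclin D1, at 187 ± 153 and 5.89 ± 23.9 CPM. The largest TB call was EGR1, an immediate early transcription factor gene, at 46.7 ± 175 CPM in EC and 1018 ± 545 CPM in TB, and it was counted in every cell of both types. The other TB calls, named after their values were seen, were ERRFI1 at 23.7 CPM in EC and 178 CPM in TB and IER3 at 9.04 and 28.5 CPM. Not every ERK target was therefore lower in TB.

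**Figure D5:**
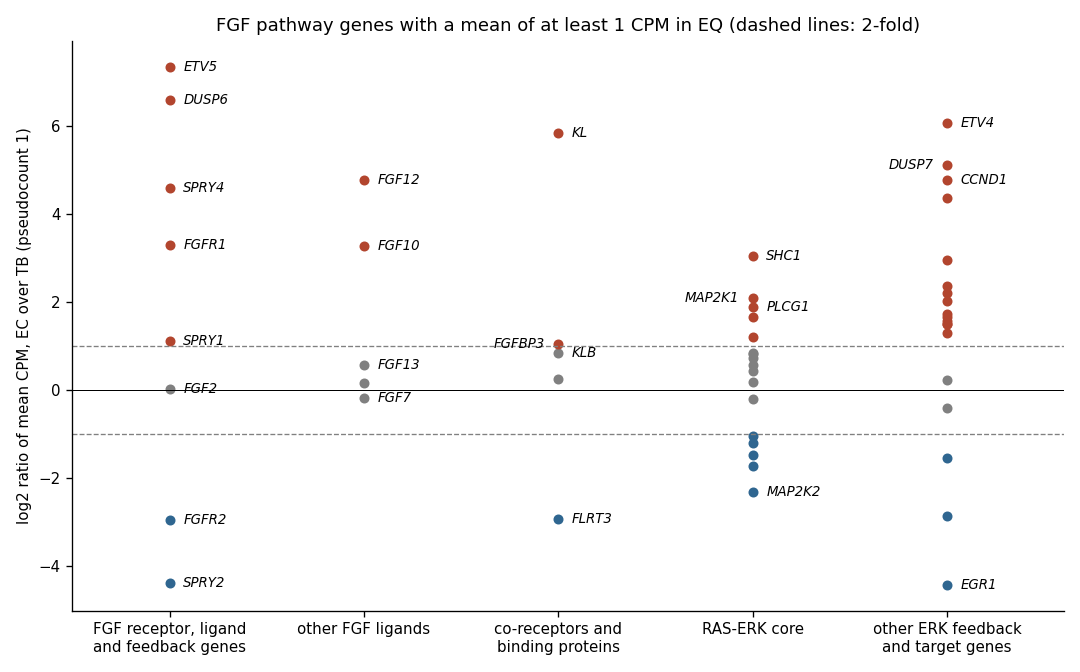
Log2 ratio of mean CPM of EC over TB (pseudocount 1) in EQ for each gene with a mean of at least 1 CPM, by list: the FGF genes examined, other FGF ligands, co-receptors and binding proteins, the RAS-ERK core, and other ERK feedback and target genes. Dashed lines mark 2-fold, and labels name the FGF genes and the 4 genes with the largest ratio of each other list. ETV5, DUSP6 and ETV4 lie highest, and EGR1 and SPRY2 lowest.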

How the data were processed

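Single-cell libraries of EC and TB from H1 were analysed as grouped by the sample labels. Per the methods, the authors trimmed reads to 51 bp, aligned them with Bowtie 1.2.3, allowing up to 2 mismatches, against Ensembl protein-coding transcripts (GRCh38), and deposited expected counts from RSEM 1.2.31, without normalization. CASAVA 1.8.2 is also named in the submitters' processing notes. RSEM shares reads between genes, so values need not be whole, and they were rounded.

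Cells with a log10 total count of at least 5.4 and at most 31% of counts in the top 50 genes were kept. Totals of these cells ran from 291346 to 6345155, at which 1 count is 0.158 to 3.43 CPM. Of the sample columns, 0 were unused. One gene of the list of 10 was not analysed here. CPM used all genes, and EC over TB was the log2 ratio of mean CPM with a pseudocount of 1, called at 2-fold among genes with a mean of at least 1 CPM over both types. Thinning drew 250000 counts per cell with a fixed seed. In a simulation of the EQ comparison with 200 genes changed 4-fold among 12318, 99.5% of them were called. The changed genes left out those at low means, and simulated cells varied with an SD near the mean. FGF2 in TB of EQ had an SD of 4.17 times its mean, so this share does not carry over to genes so variable.

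Same-numbered libraries come from 1 cell by the labels' protocol. The deviations of same-numbered passing cells from the mean of their type had correlations of at least 0.872 between EQ and EQ-75% and 0.845 between EQ and EQ-Vary, so differences between experiments were paired by cell.

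Named genes were all members, the 4 genes of each other pathway list with the largest ratio, and the 3 genes with the highest rho with a member detected in at least 80% of cells. The members and lists were chosen with earlier results of these data known. Gene positions and exon lengths were from GENCODE v44 and promoters from RefSeq. Computations used Python 3.11.15, numpy 2.4.6, pandas 2.3.3, scipy 1.17.1, matplotlib 3.10.9 and scran 1.30.0 in R 4.3.3. Alternatives were scran size factors, a pseudocount of 0.1 CPM, all cells, summed counts, unrounded counts, thinned counts, no filter on low values, and each cell left out in turn.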

Additional observations from a re-analysis of the deposited data

How the results depend on the processing

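The EC or TB call of FGFR1, FGFR2, SPRY2, SPRY4, DUSP6 and ETV5 in EQ was the same under all 8 other settings tried (scran size factors, a pseudocount of 0.1 CPM, all cells, summed, unrounded or thinned counts, and the libraries of EQ-75% or EQ-Vary) and when any 1 cell was left out, and the number of genes called was 7 throughout, or 6 to 8 with a cell left out, where SPRY1 lost its call without EC 19 or EC 39 and FGF2 gained one without TB 33. The sizes moved by over 1.5 times in some of these: with all cells the log2 ratio was -2.82 for SPRY2 and 5.33 for DUSP6, with a pseudocount of 0.1 CPM it was 8.42 for ETV5, with summed counts it was 5.19 and in EQ-Vary 5.38 for SPRY4, and in EQ-75% it was 5.07 for DUSP6. In EQ-75% without the TB cells that did not pass in EQ, added after the data were seen, it was 6, because SPRY1 was at 0.99 on the log2 scale. Counts over all genes stayed between 2083 and 2381 in EC and between 2880 and 3235 in TB, and pathway calls between 31 and 33. Of 14 gene and cell type pairs detected in at least 50% of cells, 11 remained at a minimum of 5 counts and 10 after thinning. Depth thus limits detection of genes near 1 CPM. Pairs with a rho of at least 0.3 numbered 2, but 5 with the Pearson correlation, 4 in EQ-75% and 1 to 4 with a cell left out, and the cause was not tested. Paired by cell, 0 differences between experiments exceeded their SD, and with no replicate block the number was also 0 for EQ-75% and 0 for EQ-Vary.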
